A study of Homo sapiens with 8 samples.

Results

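SRRM2, SON and SRRM1 encode large proteins of nuclear speckles, the bodies in the nucleus where splicing factors collect. Their RNAs were described here as targets of a pair of RNA-binding proteins, TIA1 and RBFOX2, in HEK293T, a line of human embryonic kidney cells that grows without limit and expresses the SV40 large T antigen. The members were chosen by position: every peak of the TIA1 list and of the RBFOX2 list that overlapped the plus strand of chr16:2802001-2822000 (SRRM2), chr21:34914001-34950000 (SON) or chr1:24969001-25000000 (SRRM1), in hg19. This gave 19 of 7442 peaks, 14 for TIA1 and 5 for RBFOX2. SRRM2 held 16 of them, SON held 3 and SRRM1 held 0. The genes were picked with their peaks already known, so the number of peaks, their folds and their p-values are a description and carry no test.

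RNA was crosslinked to protein in the cells with 600 mJ of ultraviolet light, captured by immunoprecipitation and sequenced (eCLIP). Each protein had 2 immunoprecipitated libraries, called clip, and 2 input libraries whose antibody field reads none. All 8 libraries came from the same line with no other treatment named, and the labels give an anti-HA tag antibody for the clip libraries of both proteins. One protocol text names beads bound to TIA1 for all of them, and the replicates are called biological in one label and technical in another. The deposited peak lists hold no expression values, so the cell line was not checked against marker genes.

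Each peak carries the authors' own values: a log2 fold, read as clip over input, and a −log10 p. One list was deposited per protein, joining both replicates, so no value per library, no spread between replicates and no read depth is known. The TIA1 list held 3215 peaks and the RBFOX2 list 4227. Every log2 fold was at least 3, and the lowest −log10 p was 3.01 (rounded) in both lists, so weaker peaks are not seen. The highest −log10 p was exactly 400 in both lists, at 65 TIA1 and 29 RBFOX2 peaks, and is called the cap here. Below that cap the highest value was 86.8 for TIA1 and 83.8 for RBFOX2, with none between. The value 400 is therefore not read as a measured p-value, and a peak at 400 cannot be ranked against another peak at 400.

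SRRM2 (also known as SRm300) and SON are the proteins on which speckles are built, and both carry long stretches rich in serine and arginine. SRRM1 (SRm160) works together with SRRM2 as a splicing co-activator. TIA1 prefers U-rich RNA, often just downstream of 5′ splice sites, and also acts on translation and in stress granules. RBFOX2 regulates alternative splicing and recognises the element GCAUG, written GCATG in DNA letters. SRRM2 and SON share an unusual gene structure, in which 1 very long internal exon codes for most of the protein. In the GENCODE 29 reference, on GRCh38, this was exon 11 of 15 in SRRM2 (ENSG00000167978), with 6701 of the mRNA's 9353 bases (71.6%). In SON (ENSG00000159140) it was exon 3 of 12, with 5916 of 8813 bases (67.1%). Among 14232 principal mRNAs, 470 had a longer exon than SRRM2 and 669 a longer one than SON, with first and last exons counted too. SRRM1 (ENSG00000133226) had 17 exons in an mRNA of 4011 bases, and its longest exon, the last, was 1086 bases long.

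The element that RBFOX2 is known for occurs in the mature mRNA of all 3 genes, as it does in 82.6% of the 14232 reference mRNAs. Whether the element relates to the number of RBFOX2 peaks was not tested. The sites were read from the GENCODE 29 reference transcripts, sense strand only, 5′ to 3′, with the element in capitals and 10 bases on either side. Numbers give the element's first base counted from the mRNA's first base. None of them has been placed inside or outside a peak, because the peaks are in hg19, that genome's sequence was not used here, and peaks may also lie in introns.
SRRM2, 1845, coding, exon 11: aagtttctcgGCATGccagctcttc
SRRM2, 6911, coding, exon 11: agtcgtcctaGCATGtccccaacac
SRRM2, 8024, coding, exon 11: gatcacaatgGCATGctctctgtcc
SRRM2, 9110, 3′ UTR, exon 15: ggccagggagGCATGgccccacttg
SON, 419, 5′ UTR, exon 1: tcctcccgagGCATGctgggagcct
SON, 4977, coding, exon 3: ccagagattgGCATGcaggagattg
SON, 7218, coding, exon 7: gaagccatgaGCATGttaaatagag
SON, 7803, 3′ UTR, exon 12: ctaataagaaGCATGctaaagccac
SRRM1, 3172, 3′ UTR, exon 17: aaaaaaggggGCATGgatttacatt
SRRM1, 3617, 3′ UTR, exon 17: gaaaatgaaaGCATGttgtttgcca

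Per kb of mRNA the values of the 3 genes lay close together for this element, and all were below the middle of the reference. SRRM2 had 0.43 sites per kb, SON 0.45 and SRRM1 0.50, against a median of 0.82 over the 14232 mRNAs. At least 1 such element was present in 82.6% of all these mRNAs. Runs of at least 5 T, the DNA spelling of the U-rich RNA that TIA1 prefers, were densest in SRRM1. SRRM1 had 15 such runs, or 3.74 per kb, more than 88.2% of the reference mRNAs. SRRM2 had 5, or 0.53 per kb, and SON had 8, or 0.91 per kb, both under the median of 1.45. Such a run was present in 81.1% of all mRNAs. By the share of T over the whole mRNA the order was different: SON had 24.2%, SRRM1 22.9% and SRRM2 19.6%, all under the median of 24.6%. SRRM2 was lowest of the 3 by both measures, while SRRM1 was highest by runs only. Whether these counts relate to the number of TIA1 peaks was not tested. These counts cover exons only and say nothing of the introns.

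**Figure D1:**
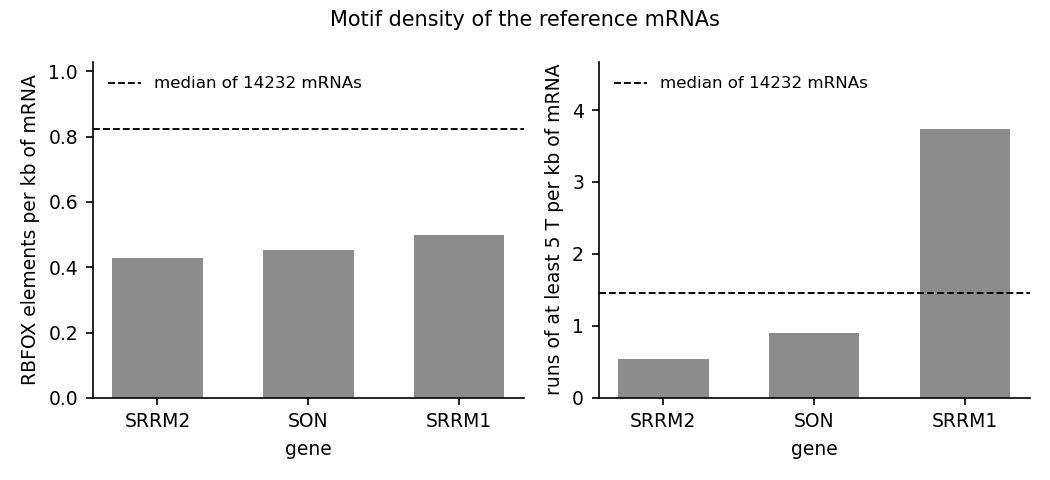
Density of the RBFOX element (left) and of runs of at least 5 T (right) per kb of the reference mRNA, as bars for SRRM2, SON and SRRM1, with the median of 14232 mRNAs as a dashed line. All 3 genes lie under the median for the RBFOX element, and SRRM1, at 3.74 per kb, is the only one above it for T runs.

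SRRM2 RNA carried 12 TIA1 peaks, 0.373% of that list, and 4 RBFOX2 peaks, 0.0946% of the other. The TIA1 peaks covered 432 bases, or 2.16% of the 20 kb span, and the RBFOX2 peaks covered 68 bases, or 0.34%. When peaks with a gap of at most 50 bases were joined, TIA1 had 5 sites and RBFOX2 had 2. The TIA1 sites ran over 15.5 kb from first to last base, while all RBFOX2 peaks lay within 3.56 kb near the start of the span. In the first 5 kb of the span lay 8 TIA1 and 4 RBFOX2 peaks, and in the remainder 4 TIA1 and 0 RBFOX2 peaks.

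**Figure D2:**
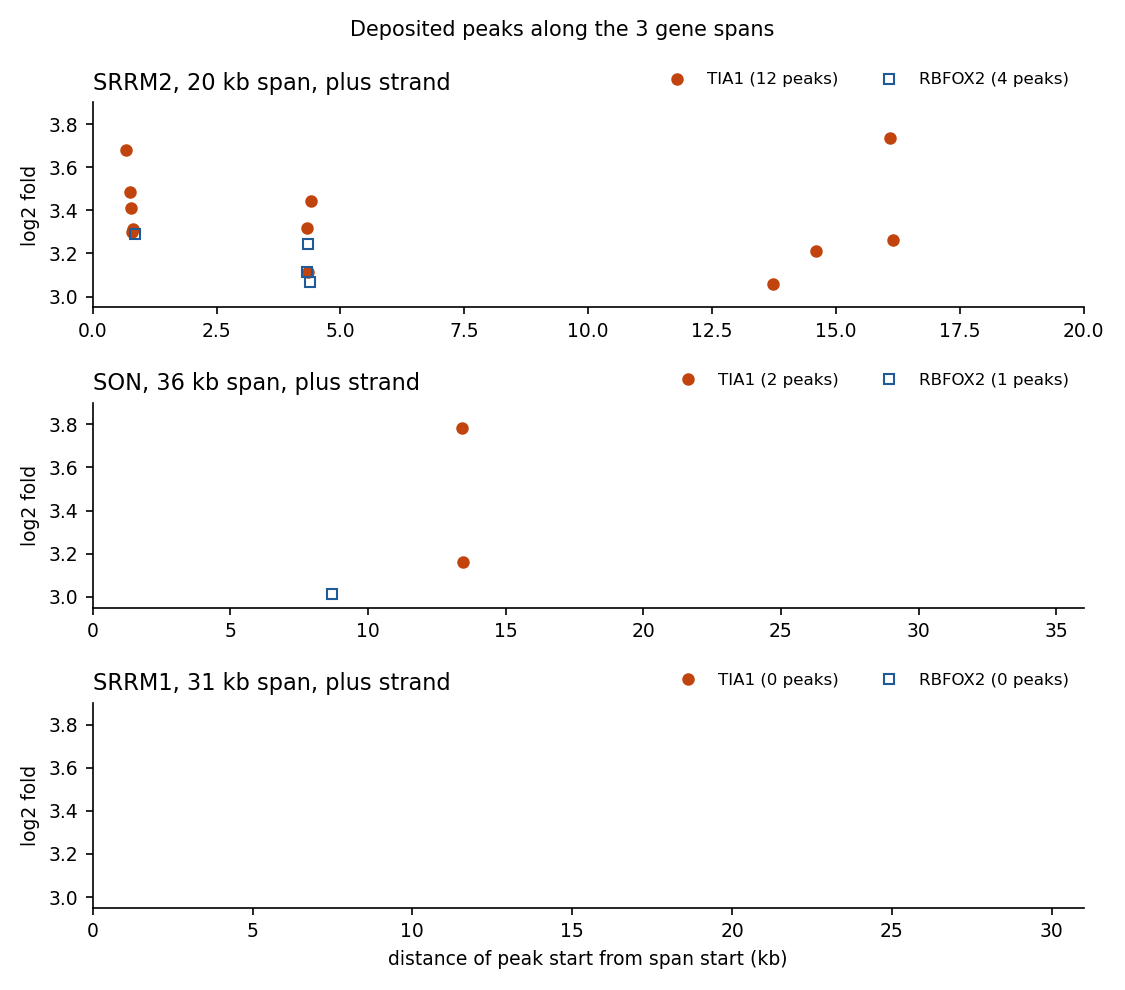
Each deposited peak of SRRM2, SON and SRRM1 as a point, by the distance of its first base from the start of the span (x axis, kb) and its log2 fold (y axis, not from 0), with filled circles for TIA1 and open squares for RBFOX2. In SRRM2, RBFOX2 peaks appear only at the 2 TIA1 sites nearest the span start, in SON the proteins lie apart, and SRRM1 is empty.

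The first SRRM2 site was the largest, with 5 abutting TIA1 peaks at chr16:2802671-2802852, 182 bases in all. Its folds fell off along the RNA. The first peak, 2802671 to 2802751, had a log2 fold of 3.68 (12.8-fold) and a −log10 p at the cap of 400. The second, 2802752 to 2802780, had a log2 fold of 3.48 and a −log10 p of 79.7. The remaining 3, from 2802781 to 2802852, had log2 folds of 3.41, 3.30 and 3.31, with −log10 p of 43.6, 67.4 and 63.8. The RBFOX2 list held a single peak here, 3 bases wide, at 2802849 to 2802851, inside the last of these TIA1 peaks. Its log2 fold was 3.29 and its −log10 p 9.67. At this site the end with the highest TIA1 fold thus lay 97 bases from the RBFOX2 peak. Sites with 5 or more joined peaks made up 24 of the 2413 joined sites of the TIA1 list.

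The second site, 3482 bases further on, was the one where the lists met most closely. TIA1 peaks ran from 2806335 to 2806336, from 2806337 to 2806376 and from 2806415 to 2806454, with log2 folds of 3.32, 3.12 and 3.44. Their −log10 p were 34.6, 44.9 and 25.1. The RBFOX2 peaks ran from 2806335 to 2806336, from 2806339 to 2806370 and from 2806378 to 2806408, with log2 folds of 3.11, 3.24 and 3.07. Their −log10 p were 22.8, 30.1 and 15.4. The 2-base peak at the start was the same in both lists, and only 5 peaks of the TIA1 list had an exact copy among RBFOX2 peaks. The last RBFOX2 peak fell in the gap between the 40-base TIA1 peaks, 1 base past the one and 6 bases before the other. Here the highest TIA1 fold lay at the far end of the site and the highest RBFOX2 fold in its first part. No replicate spread is known for these folds, so their order along this site or the first one is a description only.

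The remaining TIA1 sites of SRRM2 lay 13.7 kb or more from the start of the span, after 9271 bases without a peak, and the nearest RBFOX2 peak of the gene was at least 9317 bases away. A lone TIA1 peak at chr16:2815726-2815783 had a log2 fold of 3.06 and a −log10 p of 34.9. The next, at chr16:2816603-2816631, had a log2 fold of 3.21 and a −log10 p of 40.8. The last site, chr16:2818097-2818177, held the highest SRRM2 fold. Its first peak, up to 2818155, had a log2 fold of 3.73 (13.3-fold), and the abutting second one had 3.26, with both −log10 p at 400. SRRM2 therefore reached the cap at both ends of its row of TIA1 sites. None of its 3 peaks at the cap overlapped an RBFOX2 peak. Only 24.0% of all TIA1 peaks did, so this count supports no comparison.

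**Figure D3:**
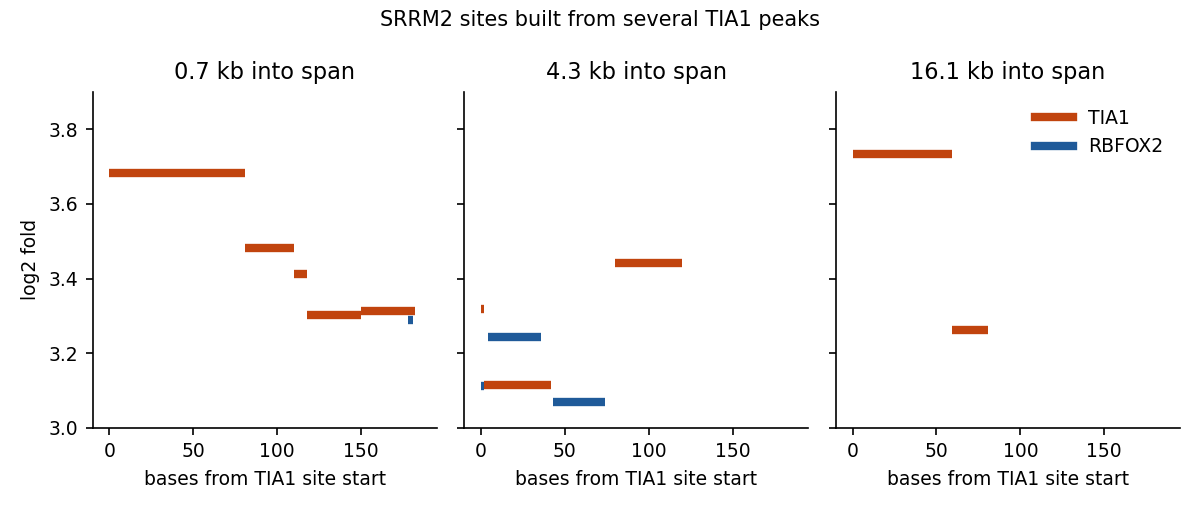
The 3 SRRM2 sites made of several TIA1 peaks, each peak drawn as a bar from its first to its last base (x axis, bases from the start of the TIA1 site) at its log2 fold (y axis, from 3), with TIA1 in orange and RBFOX2 in blue. The site 0.7 kb into the span declines from 3.68 to 3.31, the one at 4.3 kb holds interleaved peaks of both proteins, and the one at 16.1 kb holds TIA1 alone.

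SON RNA carried 2 TIA1 peaks and 1 RBFOX2 peak, at separate places. The TIA1 peaks abutted at chr21:34927426-34927506, 13.4 kb into the span. The first, up to 34927452, had a log2 fold of 3.78 (13.8-fold) and a −log10 p of 19.9, and the second had 3.16 and 24.5. The former was the highest fold of all 19 peaks described here. The RBFOX2 peak, chr21:34922684-34922784, was 101 bases wide and lay 4641 bases before the TIA1 site. Its log2 fold of 3.01 stood just above the lower limit of the list, with 1.51% of RBFOX2 peaks below it, and its −log10 p was 10.2. The first peak had the higher fold and the second the higher −log10 p at this TIA1 site, so the measures did not rank its peaks alike.

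SRRM1 held no peak of either protein (0 of 3215 and 0 of 4227). The span of 31 kb is shorter than the gene in GENCODE 29, which measures 41.6 kb on GRCh38 on the same chromosome and strand. The spans of SRRM2 (20 kb, against 20.2 kb in the reference) and SON (36 kb, against 34.9 kb) were closer to their genes. The nearest peaks on the strand of SRRM1 lay far outside the span: the closest before it was a TIA1 peak 139 kb away (log2 fold 3.78). After it, a TIA1 peak and an RBFOX2 peak both began 71.9 kb away, with log2 folds of 3.21 and 3.52. Since the lists give only peaks past the authors' limits and no RNA level, fewer SRRM1 transcripts and less binding per transcript cannot be told apart.

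The edges of the other spans were also clear of peaks, so the exact limits of the spans did not decide the members. Around SRRM2 the nearest peaks on the strand were an RBFOX2 peak 43.5 kb before the span, with a log2 fold of 4.92, and another 111 kb after it, with 3.08. The nearest TIA1 peak lay 69.3 kb before it. Around SON the nearest peak on the strand was an RBFOX2 peak 496 kb after the span. On the opposite strand none of the 3 spans held a peak of either protein.

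Among all TIA1 peaks, those of SRRM2 and SON stood high in −log10 p and near the middle in fold. All 14 had a −log10 p above the list median of 7.36, and the lowest of them exceeded 87.7% of the list. By fold, 6 of 14 were above the list median of 3.36, and the median over the 14 was 3.32. The 3 SRRM2 peaks at the cap were among 65 in the list (2.02%), whose log2 folds ran from 3.03 to 5.48 with a median of 3.77. All 3 were under that median. In the whole TIA1 list 9.21% of peaks had a log2 fold of 4 or more, against 0 of these 14. The 14 peaks form only 5 joined sites in SRRM2 and 1 in SON, so the count of 0 supports no comparison.

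The RBFOX2 peaks of SRRM2 and SON stood above the middle of their list in −log10 p and below it in fold. All 5 had a −log10 p above the list median of 6.77, the lowest of them exceeding 69.4% of the list, and all 5 had a log2 fold below the list median of 3.48. The highest, 3.29, exceeded only 32.4% of the list. In the whole RBFOX2 list 19.3% of peaks had a log2 fold of 4 or more, against 0 of these 5. None of these 5 was at the −log10 p cap, where 0.686% of the list stood. They form only 2 joined sites in SRRM2 and 1 in SON, so neither count of 0 supports a comparison. The members' read counts are not known, so how far abundance of these RNAs enters the p-values was not tested.

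**Figure D4:**
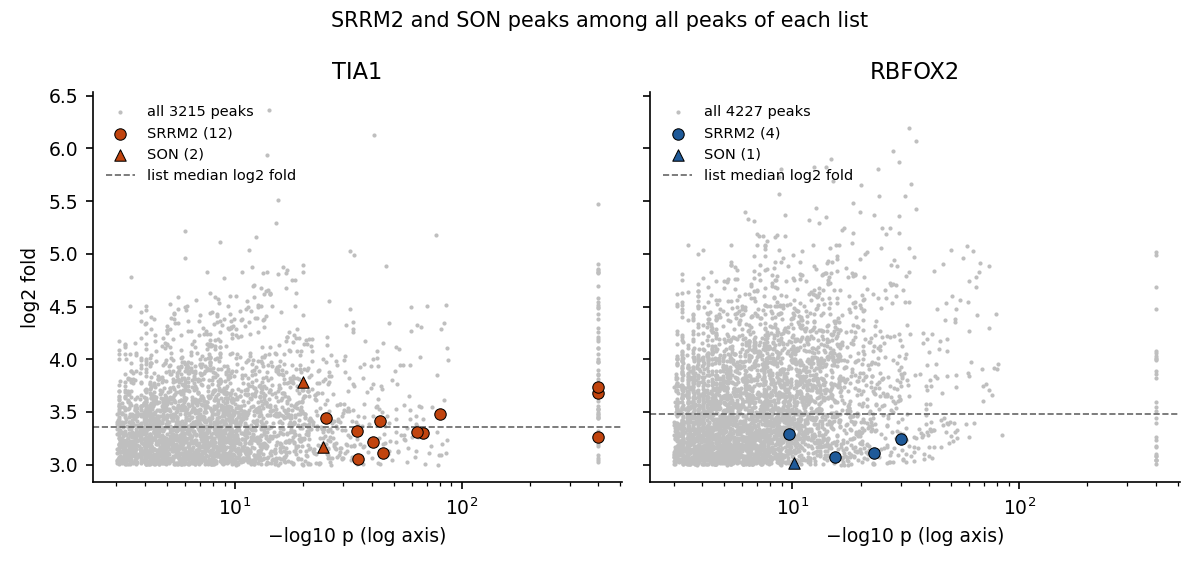
Every peak of the TIA1 list (left) and the RBFOX2 list (right) in grey by −log10 p (x axis, log scale) and log2 fold (y axis), with SRRM2 peaks as coloured circles, SON peaks as triangles and the list's median log2 fold as a dashed line. The TIA1 members lie to the right and on both sides of the median line of 3.36, and the 5 RBFOX2 members all lie under theirs at 3.48.

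Peaks of the proteins overlapped in SRRM2 and not in SON. Of the 12 TIA1 peaks of SRRM2, 3 shared at least 1 base with a peak of RBFOX2 on the strand (25.0%), against 24.0% of the whole TIA1 list. Of its 4 RBFOX2 peaks 3 overlapped a TIA1 peak (75.0%), against 21.7% of the RBFOX2 list, but these are 4 peaks at 2 sites of 1 RNA and support no comparison. In SON the count was 0 for both proteins, but its 2 TIA1 peaks and 1 RBFOX2 peak are too few to set against SRRM2 or the lists. The 3 overlapping pairs shared 3, 2 and 32 bases. The TIA1 log2 fold was higher by 0.02 and 0.21 in the first 2 pairs. In the pair that shared 32 bases it was lower, with a difference of -0.13 (TIA1 minus RBFOX2). Over all 1065 overlapping pairs in the lists the median difference was 0.05, and TIA1 was higher in 54.0%. The shared pairs of SRRM2 thus included both directions, with differences that cannot be set against a replicate spread.

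Of the 3 genes, SRRM2 had the most crowded TIA1 peaks. With the genome divided into strand-specific bins of 20 kb, 1905 bins held a TIA1 peak, with a median of 1 per bin. All 12 SRRM2 peaks fell in a single bin, and 10 bins in all held 12 or more, up to 24. By joined sites these 10 bins held from 1 to 11. SRRM2 had 5 TIA1 sites, and 8 of the 10 bins had 5 or more. These 10 bins were set by the TIA1 count of SRRM2 and include its bin. Their number of RBFOX2 peaks ran from 0 to 7 with a median of 1. SRRM2 had 4, and 12.9% of the 2063 bins with an RBFOX2 peak held 4 or more. The 2 TIA1 peaks of SON also shared a bin, as did at least 2 peaks in 32.2% of occupied bins. Between 2 and 3 Mb of chromosome 16, the lists held 28 TIA1 and 35 RBFOX2 peaks, with both strands counted. The plus-strand span of SRRM2 supplied 12 (42.9%) and 4 (11.4%) of them. Most peaks of either protein in that stretch, on either strand, thus lay outside the SRRM2 span.

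Very short peaks were present among the members. Of the 19, 3 were at most 3 bases wide, all in SRRM2: the 2-base peak found in both lists and the 3-base RBFOX2 peak. Peaks this short made up 2.92% of the TIA1 list and 0.544% of the RBFOX2 list. They enter 2 of the 3 overlapping pairs, and the only pair formed by wider peaks on both sides is the one that shared 32 bases.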

How the data were processed

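The authors deposited 1 peak list per protein, without a header, and the labels tie each to its 2 clip and 2 input libraries. Per the submitters' processing notes, UMI-tools 1.0.0, cutadapt 1.14, STAR 2.4.0i, SAMtools 1.6 and hg19 were used, without roles, with the peak caller not given in the sources used here. The deposited columns were taken as −log10 of a p-value and as a log2 fold from their ranges.

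Here, starts were made 1-based, peaks were assigned to the spans by at least 1 shared base on the strand, joined within 50 bases, and set against the whole lists with Python 3.11.15, pandas 2.3.3 and numpy 2.4.6. Figures used matplotlib 3.10.9. Overlap counting and joining were tested on simulated data. Motifs were counted in the longest GENCODE 29 transcript per gene marked as principal, for letters and sizes only, because that reference is on GRCh38 and coordinates were not converted; exon and intron positions of the peaks and the planned list of other speckle genes were therefore not analysed here. Spans, members and lists were chosen with earlier results of these data known, and the motif counts were added after the peaks were seen. All SRRM2, SON and SRRM1 peaks are named, which includes those the naming rule picks (the 4 highest by −log10 p and by fold, and joined sites). Alternatives were stricter fold, p and width limits, other overlap rules, joined peaks, wider spans and width weighting.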

Additional observations from a re-analysis of the deposited data

How the results depend on the processing

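No paired analysis was possible because the deposited lists give joint values of both replicates. Leaving out a replicate could not be done either. Wider spans, whole peaks only and a −log10 p of at least 5 left every count of peaks per gene as it was. A log2 fold of at least 4, or the opposite strand, left 0 peaks in SRRM2 and SON for either protein. Joining within 50 bases gave SRRM2 5 TIA1 and 2 RBFOX2 sites and left 1 TIA1 site in SON. A width of at least 20 bases left 2 RBFOX2 peaks in SRRM2. With a gap of up to 50 bases counted as shared, 5 SRRM2 TIA1 peaks met RBFOX2 in place of 3. The median log2 fold of the SON TIA1 peaks, 3.47, became 3.37 as 1 joined site and 3.16 when weighted by width, since it rests on 2 unlike peaks. The other medians moved by at most 0.1. Depth is unknown, so a gene without peaks cannot be read as unbound.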
